A study of Mus musculus with 12 samples.

Results

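Dcx, Sox11, Eomes, Neurod1, Igfbpl1, Neurog2, Hes5, Mki67 and Top2a are 9 genes used as markers of neural progenitors, dividing cells and newborn neurons, and their RNA was followed in the mouse hippocampus across 4 groups. They were chosen by name: each symbol was matched through its RefSeq transcripts to 1 of the 23382 rows of the gene table, and all 9 were found and kept by the filter on low counts. The mice had a C57BL/6 background and were either controls or carried the mutation labelled aDN-DISC1, and each genotype received vehicle or Δ9-THC (delta-9-tetrahydrocannabinol, the main psychoactive compound of cannabis), with 3 libraries per group. The DISC1 protein is a scaffold whose gene has been tied to psychiatric disorders, and the series title speaks of exposure in adolescence and of a vulnerability specific to astrocytes. The promoter that drives the mutant protein, the age and sex of the mice, the dose, the litters and the sequencing runs were not given in the sources used here, and the controls were placed by their titles, since no genotype entry accompanies them. The labels give only the number of libraries per group, so the p-values below measure the spread between these libraries.

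The dentate gyrus of the adult hippocampus keeps a niche in which radial glia-like stem cells divide and give rise to intermediate progenitors, then to neuroblasts and immature neurons, and at last to granule neurons. Hes5, a transcription factor downstream of Notch, is high in the stem cells and is also found in astrocytes. Mki67 (the Ki-67 antigen) and Top2a (a topoisomerase that untangles sister chromatids) are present in cycling cells of any kind. Eomes (Tbr2) and Neurog2 mark intermediate progenitors, Neurod1 acts in later progenitors and stays on in granule neurons, Igfbpl1 marks early neuroblasts, and Dcx (doublecortin) and Sox11 mark neuroblasts and immature neurons. These cells are a small share of the hippocampus, and in bulk RNA fewer cells of a type and less RNA per cell cannot be told apart.

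Total expected counts were 33165903 to 41389957 per library. Markers of tissues beside the hippocampus differed between libraries, which bears on several results below. All 8 striatal neuron genes listed were highest in library 3 of the mutant THC group, followed by library 3 of the mutant vehicle group. The dopamine receptor gene Drd1 stood at 302 and 37.1 CPM (counts scaled to a library of 1e+06 after normalisation by the trimmed mean of M-values) in those libraries and at 6.63 to 11.5 CPM in the other 10. The summed level of 10 choroid plexus genes, led by Ttr, was 64.8 to 136 CPM in control vehicle, 3964 to 11005 CPM in mutant vehicle, 96.7, 5723 and 110 CPM in control THC libraries 1 to 3, and 6853, 90.8 and 3218 CPM in mutant THC libraries 1 to 3. Markers of the labelled tissue were present in every library: the dentate granule gene Prox1 was at 30.8 to 97.8 CPM, lowest in mutant THC library 3, and the neuronal gene Rbfox3 at 85.9 to 138 CPM.

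The sequences that bear on the pair of cycling genes and on the Notch target are the stretches just before their transcription starts, taken from RefSeq on GRCm38.p6, the assembly of mm10. Promoters of genes of the late cell cycle typically hold CCAAT boxes and the cell cycle genes homology region, spelled TTTGAA or, in a variant, TTCGAA. The Top2a stretch is chr11:99024200-99024439 on the minus strand, and that of Mki67 is chr7:135716451-135716629 on the minus strand. Capitals mark CCAAT boxes, copies of TTTGAA and copies of TTCGAA on either strand.
Top2a: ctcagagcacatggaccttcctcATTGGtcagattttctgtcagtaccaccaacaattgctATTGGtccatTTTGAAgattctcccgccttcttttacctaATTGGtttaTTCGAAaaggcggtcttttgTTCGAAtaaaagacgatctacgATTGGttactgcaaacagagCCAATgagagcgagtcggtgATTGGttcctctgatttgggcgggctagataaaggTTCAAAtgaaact
Mki67: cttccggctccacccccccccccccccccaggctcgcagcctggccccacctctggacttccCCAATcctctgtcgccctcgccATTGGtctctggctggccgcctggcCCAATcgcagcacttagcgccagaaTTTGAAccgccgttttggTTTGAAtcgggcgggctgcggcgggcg
In the 250 bases before the start, Top2a held 6 CCAAT boxes, 2 matches to TTTGAA and 2 to TTCGAA, and Mki67 held 3 CCAAT boxes and 2 matches to TTTGAA. Of 32851 such windows of the mouse annotation, 33.8% held CCAAT, 10.1% held it at least 2 times and 0.840% at least 4 times, 16.0% held TTTGAA and 1.81% at least 2 times, and 1.34% held TTCGAA. Both cycling genes therefore carried letters that few windows carry so often, which is a description of the sequence and not evidence of a bound site.

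For Hes5 the letters of interest are TGGGAA, the core recognised by RBPJ, the DNA-binding partner of Notch. Its window held TGGGAA 2 times, which 2.77% of all windows did, and 21.6% held it at least once. Each match is shown with its neighbouring bases on the plus strand, at chr4:154960685-154960714 and chr4:154960829-154960858, inside the annotated span of the gene, upstream of the start that the table uses. Capitals mark TGGGAA or its reverse complement.
Hes5 upstream match: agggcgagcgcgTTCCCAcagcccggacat
Hes5 downstream match: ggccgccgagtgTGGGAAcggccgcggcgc
Of the 8 members in the promoter table, only Hes5 had TGGGAA in this window. The other motifs searched on both strands were the E-box CAGCTG, a second E-box spelled CAGATG, the N-box CACNAG and the TATA sequence TATAAA, each counted independently, so that overlapping matches counted for each. In all windows these were held by 13.0%, 14.4%, 36.7% and 12.4%. Among the members, Sox11 held the first E-box, the N-box, CCAAT and the homology region once each, and Eomes held the N-box and CCAAT 2 times each. Dcx held the TATA sequence and the N-box in both of its windows. The windows of Neurod1 and Neurog2 held none of the 8 motifs. Igfbpl1 was not in the table.

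Divided by transcript length, the members ran in a graded series from abundant to scarce. Mean levels over the 12 libraries were 7.08 ± 1.36 CPM per kilobase for Neurod1, 6.25 ± 0.743 for Sox11, 5.27 ± 1.26 for Hes5, 3.86 ± 0.444 for Dcx and 2.94 ± 0.903 for Igfbpl1 (SD, n = 12). Lower in the series were Top2a at 1.46 ± 0.587, Mki67 at 0.659 ± 0.212, Neurog2 at 0.579 ± 0.0942 and Eomes at 0.502 ± 0.214 CPM per kilobase (SD, n = 12). The neighbours Neurod1 and Sox11, Sox11 and Hes5, Mki67 and Neurog2, and Neurog2 and Eomes lay closer to each other than the larger of their SDs. Lengths are means over the annotated transcripts, 4406 bases for Dcx and 10061 for Mki67, for example, and not the lengths used in counting.

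The members also differed in how much they varied between libraries, before any group is considered. The steadiest were Dcx and Sox11, with a coefficient of variation of 11.5% and 11.9% in CPM. Neurog2 varied by 16.3%, close to the 14.4% that counting error alone gives at its mean of 48.2 counts per library. Neurod1 varied by 19.2%, Hes5 by 24.0%, Igfbpl1 by 30.7% and Mki67 by 32.2%. The most variable were Top2a at 40.2% and Eomes at 42.7%, against 5.90% and 12.8% from counting alone, so their spread lies well above counting error.

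**Figure D1:**
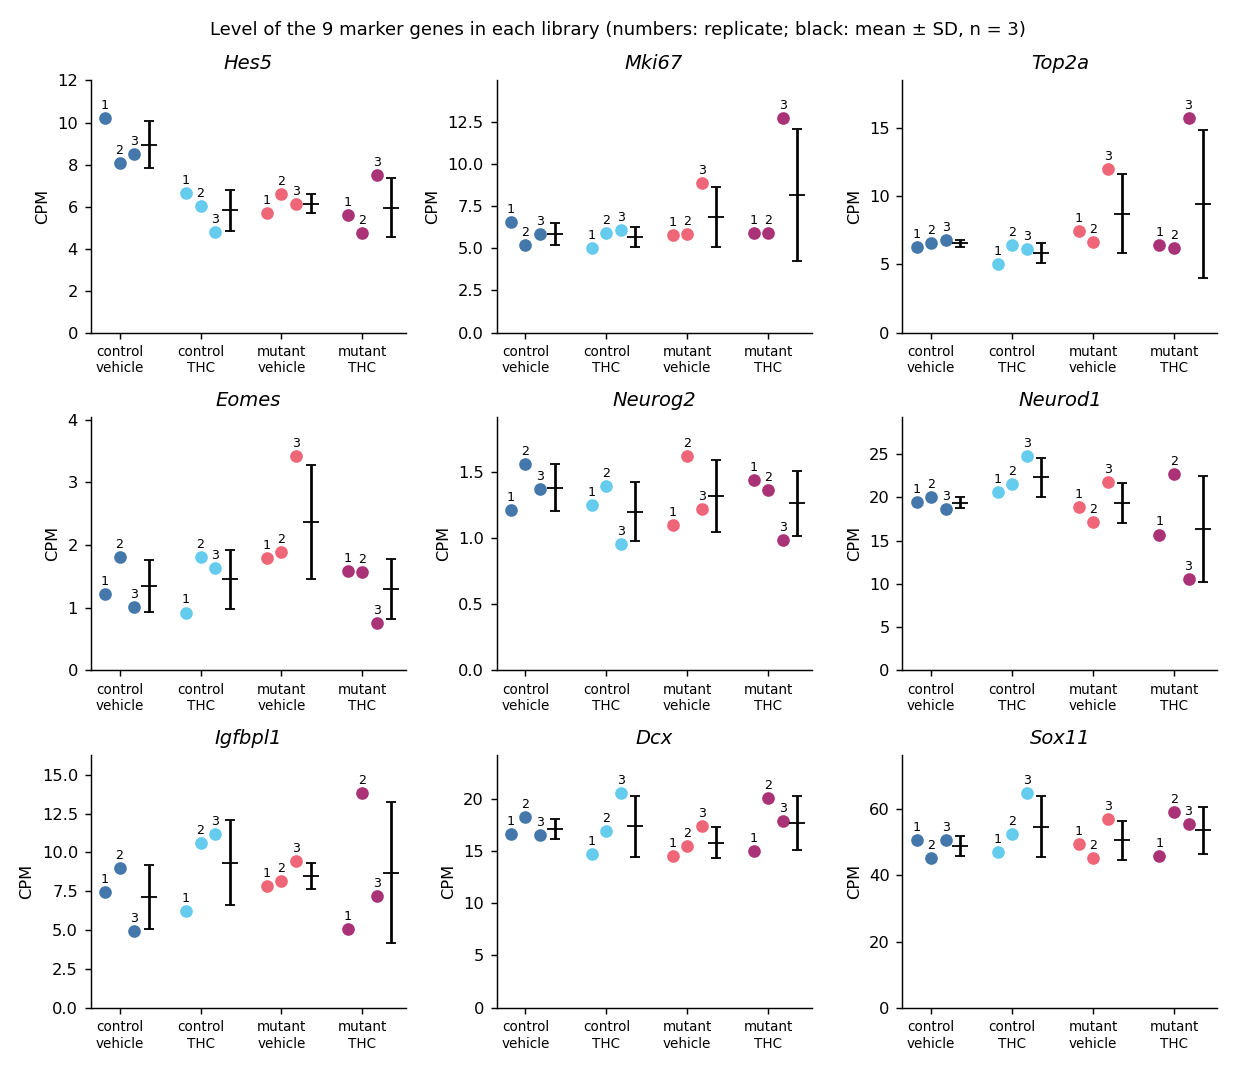
Level of each of the 9 genes in CPM (vertical axes, from 0) in the 12 libraries, by group; the number above a point is the library's number in its group, and the black mark is the mean ± SD of 3 libraries. Hes5 is higher in the 3 control vehicle libraries (8.09 to 10.2 CPM) than in the other 9, and the highest Mki67 and Top2a points are mutant THC library 3 (12.7 and 15.7 CPM).

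Of the 9 members, 0 passed the threshold in each of 7 comparisons, with edgeR's quasi-likelihood test and Benjamini-Hochberg adjusted p-values under 0.05 over 15802 genes. The background was about as empty: 0% of genes were called for THC in control mice, THC in mutants, the interaction and THC averaged over genotypes, and 0.00633% (1 gene, Prm1, higher in mutants) for each genotype comparison. DESeq2 and limma-voom also called 0 of the 9 members. With DESeq2 the background was not as empty, mainly for genotype under vehicle and averaged genotype, and its counts are given in the last section. At an unadjusted p under 0.05 there was 1 member of 9 for THC in control mice (Hes5; 7.0% of all genes), 1 for THC in mutants (Eomes; 5.73%), 1 for genotype under vehicle (Hes5; 17.8%), 0 for genotype under THC (8.98%), 1 for the interaction (Hes5; 6.59%), 1 for averaged THC (Hes5; 6.05%) and 1 for averaged genotype (Top2a; 21.2%). The median log2 fold change of the members was 0.02 for THC in control mice, 0.03 for THC in mutants, 0.05 for genotype under vehicle and 0.03 for genotype under THC, beside 0.00, -0.01, -0.01 and 0.01 over all genes tested. The members thus showed no common shift, and single genes are described below with their values.

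**Figure D2:**
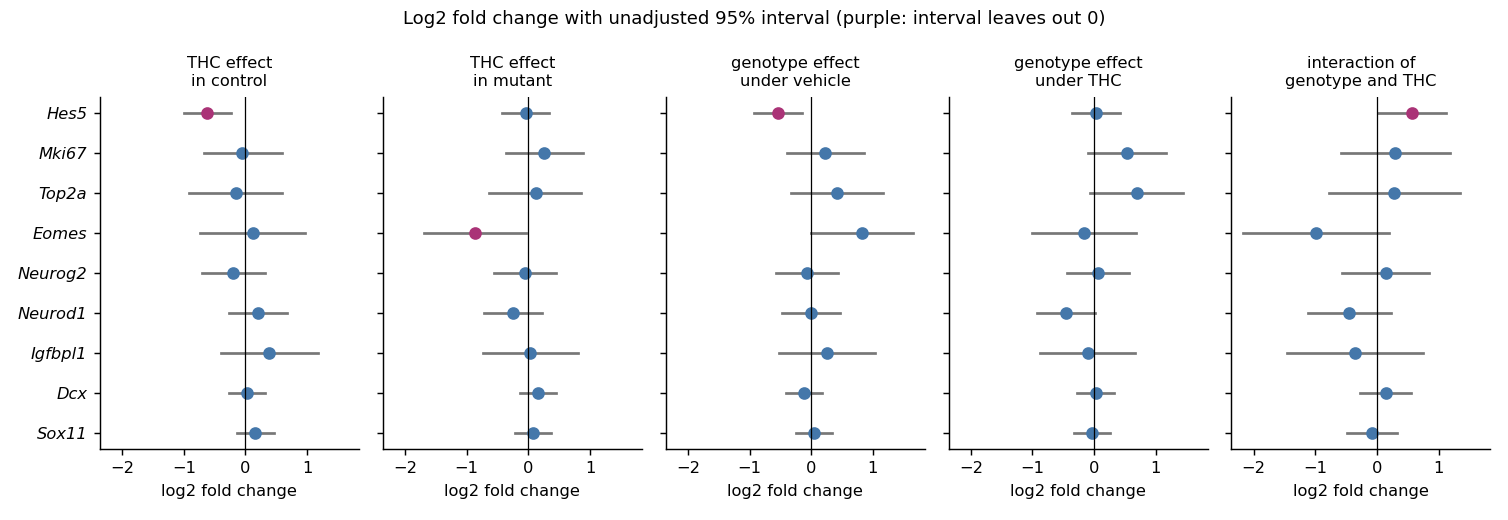
Log2 fold change (horizontal axes) of the 9 genes in 5 comparisons, with unadjusted 95% intervals from the edgeR fit. The intervals that leave out 0 belong to Hes5 for THC in control mice, genotype under vehicle and the interaction, and to Eomes for THC in mutants; none passed the adjusted threshold.

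Hes5, the Notch target of the stem cells, stood in control mice at 10.2, 8.09 and 8.50 CPM under vehicle (libraries 1 to 3) and at 6.66, 6.03 and 4.77 CPM under THC. In mutants it stood at 5.70, 6.59 and 6.11 CPM under vehicle and at 5.59, 4.75 and 7.49 CPM under THC. All 3 control vehicle libraries lay above the other 9, and the other 3 groups overlapped one another. The THC difference in control mice was -0.62 ± 0.18 on the log2 scale (SE, 95% interval -1.0 to -0.23, 0.653-fold), with an edgeR adjusted p = 0.70 and rank 99 among the 15802 p-values. The mutant difference under vehicle was -0.54 ± 0.17 (95% interval -0.92 to -0.15, 0.688-fold), with an edgeR adjusted p = 0.17 and rank 947. Both comparisons share the control vehicle libraries, so they are not independent of each other. In mutants THC gave -0.04 ± 0.18, under THC the genotypes differed by 0.03 ± 0.18, and the interaction was 0.57 ± 0.25 (edgeR adjusted p = 0.74).

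Groups that do not overlap were common in these data. For THC in control mice 2 of 9 members did not overlap, Hes5 lower and Neurod1 higher, against 16.4% of all genes (8.07% lower and 8.30% higher). For genotype under vehicle Hes5 alone did not overlap, lower in mutants, as did 12.7% of all genes in that direction, 15.3% in the other and 28.0% in either. For THC in mutants Eomes alone did not overlap, lower under THC, beside 4.40% of genes lower, 4.07% higher and 8.47% in either direction. For genotype under THC 0 of 9 members did not overlap, beside 10.5% of genes (4.83% higher and 5.70% lower).

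Values of other gene lists are given beside Hes5. The summed level of 9 astrocyte genes was 5862 to 5968 CPM in control vehicle. It was 5252 to 5384 CPM in control THC and 5392 to 5779 CPM in mutant vehicle, each without overlap with control vehicle. In mutant THC it was 5895, 5572 and 4663 CPM in libraries 1 to 3, so that library 1 reached the control vehicle range with Hes5 at 5.59 CPM. For genotype under vehicle 6 of 9 astrocyte genes were above 0 (median 0.07). Slc1a2, which weighs most in the sum (mean 3331 CPM over the 12 libraries), was at -0.15. For THC in control mice 8 of the 9 astrocyte genes had a log2 fold change below 0, with a median of -0.15, and the smallest p belonged to Fgfr3, a growth factor receptor (-0.34 ± 0.11, edgeR adjusted p = 0.70). The choroid plexus sum separated control vehicle from mutant vehicle, but was high in only 1 of the 3 control THC libraries. The part of astrocyte RNA or of choroid tissue in the Hes5 values was not tested. Without both libraries that held striatal RNA, the Hes5 differences were -0.61 for THC in control mice and -0.54 for genotype under vehicle. Of the 1363 exon bases of Hes5, 31.8% overlap Gm20421 on the opposite strand, and whether counting used strand was not given in the sources used here.

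Other genes of the Notch pathway were read from a list. Of 15 listed ligands, receptors and targets, 0 were called in any comparison, with a median log2 fold change of 0.02 for THC in control mice and -0.02 for genotype under vehicle. The Notch effector Hey2 was at 3.14 ± 0.438 CPM in control vehicle and 6.26 ± 1.88 CPM in mutant vehicle (SD, n = 3), a difference of 0.99 ± 0.26 (edgeR adjusted p = 0.16). The ligand gene Jag2 differed by -0.30 ± 0.09 in the same comparison (edgeR adjusted p = 0.17). Without both libraries with striatal genes the Hey2 and Jag2 differences were 0.80 and -0.26. The choroid plexus sum separated the same groups, and the part of choroid tissue in these values was not tested. For THC in control mice the smallest p-values of the pathway were those of the ligand Jag1 (0.21 ± 0.12) and the receptor Notch2 (0.39 ± 0.21), both with an edgeR adjusted p = 0.74.

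Among 14 other stem cell genes, 0 were called, and the median was -0.04 for THC in control mice and 0.08 for genotype under vehicle. For THC in control mice 9 of the 14 genes were below 0, and Nes had the highest difference of the list. The intermediate filament gene Nes, known from stem cells, stood at 13.2 ± 1.43 CPM under vehicle and 15.8 ± 0.699 CPM under THC in control mice (SD, n = 3), a difference of 0.26 ± 0.10 (edgeR adjusted p = 0.70). Under vehicle, the mutants were higher in the adhesion gene Vcam1, at 62.1 ± 10.4 against 37.3 ± 3.62 CPM (SD, n = 3). This difference was not called (0.73 ± 0.21, edgeR adjusted p = 0.16), and it was 0.61 without both libraries with striatal genes. The part of choroid tissue in the Vcam1 values was not tested.

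Mki67 and Top2a, the cycling-cell genes, lay in a narrow range in 10 libraries and were high in the same 2. Mki67 stood in control mice at 6.53, 5.21 and 5.82 CPM under vehicle and 4.99, 5.93 and 6.08 CPM under THC, and in mutants at 5.80, 5.86 and 8.88 CPM under vehicle and 5.89, 5.91 and 12.7 CPM under THC. The levels of Top2a were 6.27, 6.55 and 6.77 CPM (vehicle) and 4.99, 6.39 and 6.11 CPM (THC) in control mice, and 7.46, 6.67 and 12 CPM (vehicle) and 6.43, 6.20 and 15.7 CPM (THC) in mutants. The third mutant library of each treatment is the high one for both genes. The mutant THC library held 2.16 times the median Mki67 of the other 10 libraries and 2.45 times their median Top2a, and the mutant vehicle library held 1.51 and 1.88 times. These are the libraries with striatal genes.

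**Figure D3:**
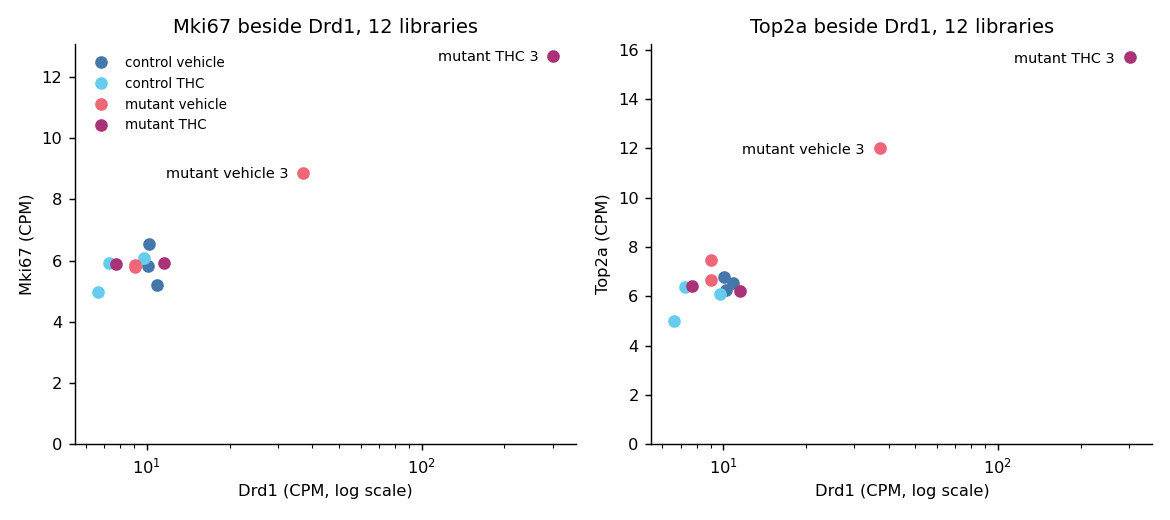
Mki67 and Top2a (vertical axes, CPM, from 0) against the striatal gene Drd1 (horizontal axes, CPM on a log scale) in the 12 libraries, coloured by group. Mutant THC 3 (Drd1 302 CPM) and mutant vehicle 3 (37.1 CPM) stand apart on both axes, and the other 10 libraries lie between 4.99 and 6.53 CPM for Mki67 and between 4.99 and 7.46 CPM for Top2a.

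The genotype differences of both genes rest on those 2 libraries. Under THC, Mki67 differed by 0.53 ± 0.29 (edgeR adjusted p = 0.56) and Top2a by 0.70 ± 0.34 (edgeR adjusted p = 0.55). Averaged over treatments, Mki67 differed by 0.38 ± 0.20 (edgeR adjusted p = 0.30) and Top2a by 0.56 ± 0.24 (edgeR adjusted p = 0.22). Without both libraries the differences under THC were 0.05 and 0.11, and the averaged differences 0.02 and 0.11, for Mki67 and Top2a. Both are mutant libraries, so these fits kept 2 libraries in each mutant group. Since they were the highest for both genes, leaving them out had to lower these differences. The Pearson correlation of log2 CPM with Drd1 over the 12 libraries was 0.96 for Mki67 and 0.94 for Top2a, and 0.34 and 0.44 without the same 2 libraries. Whether dividing cells of striatal tissue gave these counts was not tested.

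Genes of the G2 and M phases showed the same 2 libraries. Of 20 listed genes, 12 were highest in mutant THC library 3, as were 15.9% of all genes tested, and for 13 of 20 the 2 highest libraries were mutant THC 3 and mutant vehicle 3, as for 6.49% of all genes. Ube2c, which tags mitotic proteins for destruction, was at 1.11 and 0.989 CPM in them and at 0.360 to 0.739 CPM in the other 10. Bub1, a spindle checkpoint kinase, was at 1.01 and 1.17 CPM against 0.408 to 0.843 CPM. Over all 12 libraries Ube2c had only 13 to 43 counts per library and Bub1 15 to 46. Genes of these phases thus include scarce ones. Genes of the S phase, the replication licensing and nucleotide genes, were high in the same libraries less often: 5 of 16 had mutant THC 3 and mutant vehicle 3 as the 2 highest. The difference between both lists was not tested.

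No cell cycle gene was called in any comparison. The median of the 20 G2 and M genes was -0.25 for THC in control mice, 0.04 for THC in mutants, 0.16 for genotype under vehicle and 0.41 for genotype under THC. Without both libraries with striatal genes the genotype medians became 0.00 under vehicle and 0.12 under THC, with 10 and 16 of 20 genes above 0. The median for THC in control mice was then -0.24, with 16 of 20 genes below 0. The smallest p-values for THC in control mice were those of Cdca8, a subunit of the chromosomal passenger complex (-0.60 ± 0.28, edgeR adjusted p = 0.71), and Bub1 (-0.74 ± 0.38, edgeR adjusted p = 0.73). In the S phase list, whose median was -0.06, the replication licensing factor Cdt1 stood in control mice at 1.24, 1.07 and 1.06 CPM under vehicle and at 0.613, 0.552 and 0.533 CPM under THC. The Cdt1 groups did not overlap, the only 1 of 16 S phase genes lower without overlap, beside 8.07% of all genes. Its difference of -0.99 ± 0.22 did not pass the threshold (edgeR adjusted p = 0.70), and it had 19 to 47 counts per library.

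**Figure D4:**
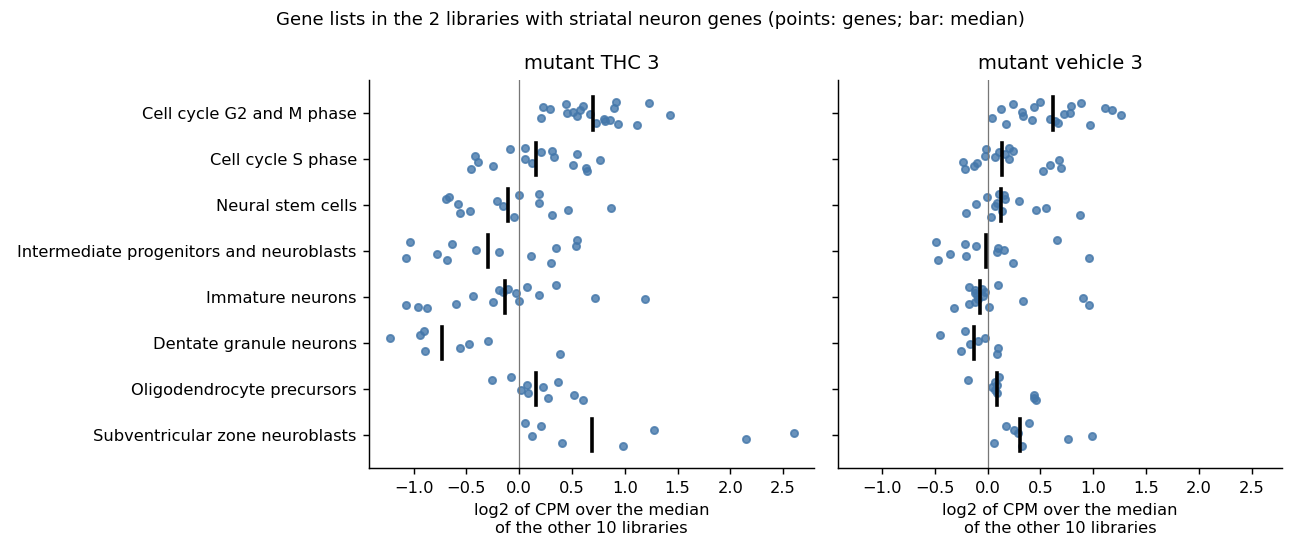
Log2 ratio of CPM in mutant THC 3 (left) and mutant vehicle 3 (right) to the median of the other 10 libraries, for the genes of 8 lists; each point is a gene and each black bar a median. The G2 and M phase genes sit to the right of 0 in both panels, and 6 of 8 dentate granule genes are at their lowest of 12 libraries in mutant THC 3.

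Other lists were read in the same libraries. In mutant THC library 3, 6 of 8 dentate granule genes (75.0%) were at their lowest of the 12 libraries, as were 18.5% of all genes. Of 8 genes listed for subventricular zone neuroblasts, 5 were at their highest there: Dlx5, Dlx6, Sp9, Gad1 and Gad2. GABA neurons also express these 5 genes. Their levels were 2.43, 6.07, 4.42, 1.32 and 1.98 times the median of the 10 libraries other than mutant THC 3 and mutant vehicle 3. The other 3, Dlx1, Dlx2 and Sp8, stood at 1.04, 1.15 and 1.09 times. Of 10 genes listed for oligodendrocyte precursors, 4 were highest in that library, Olig1 and Sox10, which mark the whole lineage, and Enpp6 and Bcas1, which mark differentiating cells. The precursor gene Pdgfra stood there at 0.947 times its median over the same 10 libraries. Cspg4 was at its lowest of the 12 libraries there (18.9 CPM). The median of the 10 genes for genotype under THC was 0.25, with Enpp6 (0.55 ± 0.18) and Bcas1 (0.51 ± 0.19) at the smallest p (edgeR adjusted p = 0.55 for both). Without both libraries with striatal genes these 2 differences were 0.36 and 0.35.

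Eomes, the intermediate progenitor factor, stood in control mice at 1.21, 1.8 and 1.01 CPM under vehicle and at 0.920, 1.8 and 1.63 CPM under THC. Mutants held 1.79, 1.89 and 3.42 CPM under vehicle and 1.59, 1.56 and 0.749 CPM under THC. The mutant groups did not overlap, and the highest and the lowest of all 12 values were the 2 libraries with striatal genes, on opposite ends. THC in mutants gave -0.87 ± 0.38 (95% interval -1.70 to -0.03, edgeR adjusted p = 0.81) and genotype under vehicle 0.82 ± 0.38 (95% interval -0.01 to 1.65, edgeR adjusted p = 0.28). Without both libraries these differences were -0.22 and 0.45. The gene had 29 to 135 counts per library.

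Neurog2, which acts at the same stage, had 34 to 60 counts per library. In control mice its level was 1.38 ± 0.174 CPM under vehicle and 1.2 ± 0.225 CPM under THC, and in mutants 1.31 ± 0.272 and 1.26 ± 0.247 CPM (SD, n = 3 each). The 4 groups overlapped, and its differences ran from -0.20 to 0.07 over the 4 comparisons of groups, with SEs of 0.23. Its intervals were -0.56 to 0.45 for THC in mutants and -0.57 to 0.43 for genotype under vehicle. The Eomes differences over all libraries, -0.87 and 0.82, lay outside them. Without both libraries with striatal genes the Eomes differences were -0.22, inside the first interval, and 0.45, at the edge of the second.

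Neurod1 stood in control mice at 19.5, 20 and 18.7 CPM under vehicle and at 20.6, 21.5 and 24.8 CPM under THC, without overlap (0.20 ± 0.22, edgeR adjusted p = 0.88). Mutants held 18.9, 17.2 and 21.8 CPM under vehicle and 15.7, 22.7 and 10.5 CPM under THC. The lowest value was again mutant THC library 3. Under THC the genotypes differed by -0.45 ± 0.22 (edgeR adjusted p = 0.55), and by -0.22 without both libraries with striatal genes. Over the 12 libraries Neurod1 had a Pearson r of 0.88 with the granule neuron gene Prox1, and 0.80 without the 2 libraries farthest from its median. The 8 dentate granule genes showed the same order: all 8 were above 0 for THC in control mice (median 0.34) and 7 of 8 below 0 for genotype under THC (median -0.56, and -0.30 without both libraries), with 0 called. Their smallest p-values for THC in control mice were those of Calb1, a calcium buffer of mature granule neurons (0.22 ± 0.10, edgeR adjusted p = 0.72), and Stxbp6 (0.52 ± 0.27, edgeR adjusted p = 0.74). How much granule layer each sample held was not tested.

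Of 12 further genes of intermediate progenitors and neuroblasts, 0 were called, with medians of 0.02, -0.06, -0.11 and -0.11 for THC in control mice, THC in mutants, genotype under vehicle and genotype under THC. The tachykinin gene Tac2 had the smallest p for genotype under vehicle (-0.55 ± 0.23, edgeR adjusted p = 0.25), and the calretinin gene Calb2, a marker of immature granule neurons and of some interneurons, for THC in mutants (-0.88 ± 0.37, edgeR adjusted p = 0.81). Calb2 was highest of the 12 libraries in mutant vehicle 3 (43.4 CPM) and lowest in mutant THC 3 (10.6 CPM), and the difference was -0.24 without both. The other mutant libraries stood at 16.9 and 26 CPM with vehicle and at 24.2 and 12.1 CPM with THC.

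Igfbpl1, a binding protein gene named for insulin-like growth factors, stood in control mice at 7.48, 9.0 and 4.94 CPM under vehicle and 6.21, 10.6 and 11.2 CPM under THC, and in mutants at 7.85, 8.16 and 9.44 CPM under vehicle and 5.08, 13.8 and 7.20 CPM under THC. The widest spread lay within mutant THC, and all groups overlapped. The differences were 0.39 ± 0.35 for THC in control mice (edgeR adjusted p = 0.84), 0.03 ± 0.35 for THC in mutants, 0.25 ± 0.35 for genotype under vehicle and -0.10 ± 0.35 for genotype under THC. Intervals of this width, -0.39 to 1.17 for THC in control mice, leave room for changes over 2-fold.

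Dcx, which binds microtubules in migrating neuroblasts, stood in control mice at 16.6, 18.2 and 16.5 CPM under vehicle and 14.7, 16.9 and 20.5 CPM under THC, and in mutants at 14.5, 15.5 and 17.4 CPM under vehicle and 15.0, 20.1 and 17.9 CPM under THC. All groups overlapped. Its differences were 0.02 ± 0.13 for THC in control mice (95% interval -0.27 to 0.31), 0.16 ± 0.13 for THC in mutants (-0.13 to 0.45), -0.12 ± 0.13 for genotype under vehicle (-0.41 to 0.18) and 0.03 ± 0.13 for genotype under THC (-0.27 to 0.32), with edgeR adjusted p-values of 0.98, 0.85, 0.68 and 0.96.

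Sox11, a transcription factor of the same cells, stood in control mice at 50.7, 45.3 and 50.6 CPM under vehicle and 47, 52.6 and 64.8 CPM under THC, and in mutants at 49.4, 45.3 and 57.1 CPM under vehicle and 45.8, 59.3 and 55.7 CPM under THC. All groups overlapped here too. Its differences ran from -0.03 ± 0.13 for genotype under THC to 0.16 ± 0.13 for THC in control mice (95% interval -0.13 to 0.46, edgeR adjusted p = 0.81). For both immature neuron genes the outer bound of every interval of these 4 comparisons was 0.46 or less in size, the narrowest intervals among the members.

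The wider list of 16 immature neuron genes held 0 called genes and had medians of 0.01, -0.03, -0.13 and -0.01 in the same order of comparisons. Stmn1, a microtubule destabiliser, and Tubb3, a neuronal tubulin, had the smallest p-values for THC in control mice, at -0.45 ± 0.13 and -0.36 ± 0.12 (edgeR adjusted p = 0.70 for both). Both are also expressed in mature neurons. For genotype under THC the smallest p-values were those of Bhlhe22 (-0.65 ± 0.22) and Marcksl1 (-0.29 ± 0.12), with an edgeR adjusted p = 0.55 for both, and without both libraries with striatal genes they were -0.44 and -0.17.

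Signals that feed the niche were examined through 19 growth factor, morphogen and receptor genes, of which 18 were tested and 0 called. The medians were -0.01 for THC in control mice, -0.09 for THC in mutants, 0.07 for genotype under vehicle and 0.02 for genotype under THC. Frzb, a secreted Wnt antagonist, had the smallest p both for THC in control mice (0.40 ± 0.15, edgeR adjusted p = 0.70) and for genotype under THC (-0.61 ± 0.15, edgeR adjusted p = 0.55), comparisons that share the control THC libraries. Gli1, a target of hedgehog signalling, differed by -0.85 ± 0.27 for genotype under THC (edgeR adjusted p = 0.55). Frzb and Gli1 were at their lowest in mutant THC library 3 (13.0 and 0.465 CPM). Without both libraries with striatal genes their differences for genotype under THC were -0.45 and -0.69. Smo, the transducer of the hedgehog pathway, differed by 0.45 ± 0.15 for genotype under vehicle (edgeR adjusted p = 0.18), and by 0.40 without both libraries. The part of choroid tissue in the Smo values was not tested. Cnr1, the cannabinoid receptor gene, had the smallest p of the list for THC in mutants (0.49 ± 0.22, edgeR adjusted p = 0.81). Its level was 687 CPM in mutant THC library 3 and 306 to 355 CPM in the other 11 libraries, and the difference was 0.07 without both libraries with striatal genes.

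The members were then compared with each other over the 12 libraries, as Pearson correlations of log2 CPM for all 36 pairs. Of these, 22 were above 0, the median was 0.10, and 1 passed the adjusted threshold. Mki67 and Top2a had r = 0.95 (permutation p = 9.5e-04, Benjamini-Hochberg adjusted p = 0.034 over 36 pairs), but Spearman's rho was 0.24 (permutation p = 0.46) and r was 0.43 without mutant THC 3 and mutant vehicle 3, so the relation rests on those libraries. By rho 0 of 36 pairs passed.

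The neuroblast genes formed another group of pairs. Dcx and Sox11 had r = 0.77 (permutation p = 0.0037, adjusted p = 0.067) and rho = 0.65 (permutation p = 0.026, adjusted p = 0.18), with r = 0.48 without control THC 3 and mutant THC 2, the libraries farthest from the median of Dcx. Dcx and Igfbpl1 had r = 0.70 (permutation p = 0.012, adjusted p = 0.14) and rho = 0.67 (permutation p = 0.021, adjusted p = 0.18), with r = 0.43 without the same libraries. After the mean of its group was subtracted from each value, 5 of 36 pairs had an adjusted permutation p under the threshold. Mki67 with Top2a had r = 0.96 (adjusted p = 3.6e-04) and Eomes with Neurod1 r = 0.69 (adjusted p = 0.034). Dcx with Igfbpl1 (r = 0.83), Dcx with Sox11 (r = 0.82) and Neurod1 with Hes5 (r = -0.81) each had an adjusted p = 0.012. The permutation moved values freely across groups, although centred values cancel within each group, so these p-values may be too small. As measured, Eomes and Neurod1 had r = 0.52 (permutation p = 0.096, adjusted p = 0.32) and rho = 0.30. Their r as measured was -0.03 without mutant THC 3 and mutant vehicle 3. Sox11 and Neurog2 had the lowest r as measured, -0.68 (permutation p = 0.015, adjusted p = 0.14), with rho = -0.69 and r = -0.69 without control THC 3 and mutant THC 2.

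**Figure D5:**
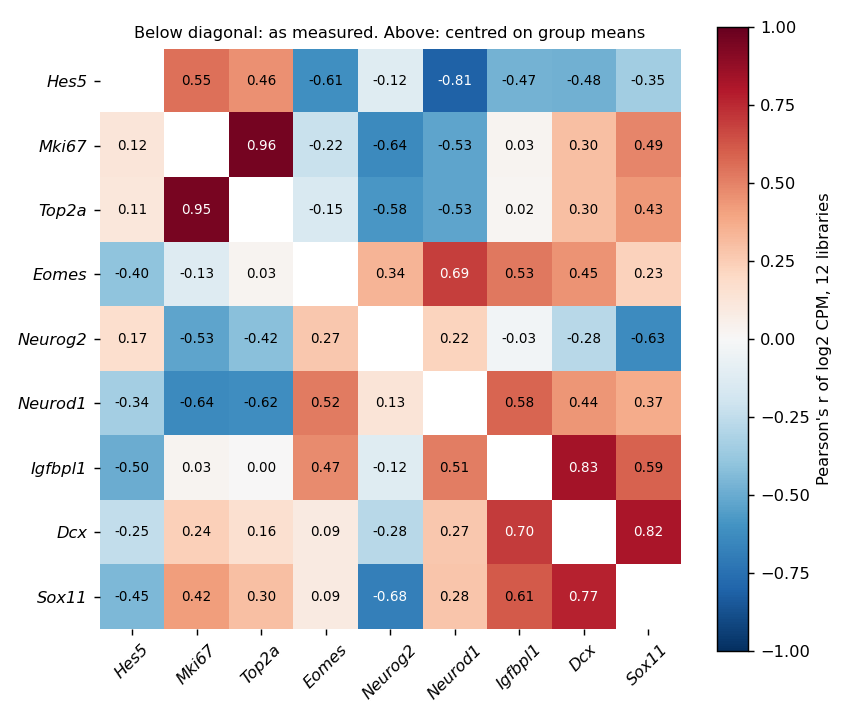
Pearson's r of log2 CPM between the 9 genes over 12 libraries, as measured (below the diagonal) and after subtraction of group means (above); the colour scale covers the full range of r. Mki67 with Top2a has the highest r below and above the diagonal (0.95 and 0.96), and Dcx with Sox11 and with Igfbpl1 follow (0.77 and 0.70 as measured).

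Among 14056 genes with a mean of 1 CPM or more, those most alike over the 12 libraries, by Pearson's r of log2 CPM and as a description, were found for 4 members. For Dcx they were Alkbh4 (0.89), Mterf4 (0.86) and 4933407K13Rik (0.85), and for Hes5 they were Clpb, Igsf21 and Lrrc24 (0.88 each). For Eomes they were Tcp11l2 (0.94), Ebf3 (0.90) and Dok1 (0.89), and without the 2 libraries farthest from the median of Eomes these values were 0.91, 0.88 and 0.69. For Mki67 they were Adora2a, a receptor gene of striatal neurons (0.97), H3c3, a histone gene (0.97), and Brca1, a repair gene of cycling cells (0.96), and without the 2 libraries with striatal genes they were 0.56, 0.78 and 0.45. Counts of histone genes are uncertain, since near-identical copies share reads.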

How the data were processed

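Per the labels' protocols, hippocampal RNA was depleted of ribosomal RNA and read from both fragment ends. The unit of the single table that the authors deposited is the expected count of a gene, with no scaling. RSEM 1.2.21 and Bowtie2 2.2.2, with mm10, CASAVA 1.8.4, FastQC and edgeR 3.10.2, appear in the submitters' processing notes. Between 27.2% and 29.4% of values per library were not whole, since RSEM shares ambiguous reads between genes. All 12 columns matched a sample, with 0 left over.

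Symbols were found through RefSeq for 23011 rows and GENCODE for 129, 7 rows held several, and the 235 without one held 0.727% of counts. Expected counts were rounded and filtered with filterByExpr (15802 genes), and scaled with TMM (factors 0.99 to 1.01). Groups were compared with edgeR 4.0.16 (R 4.3.3, robust quasi-likelihood) on 12 libraries in 1 model of 4 group means with 8 residual degrees of freedom. P-values were adjusted by Benjamini-Hochberg over all genes, with 0.05 as threshold. Correlations used log2 CPM with a prior count of 2 and 2-sided permutation tests (100000 resamples, smallest p 1e-05). Where 2 libraries were left out of a pair, they were those farthest from the median of its first gene. This choice used the values compared, and the narrower range can lower r in itself. The code was tested on simulated data. Over 66 pairs of libraries the lowest chi-square per gene was 10.8, so all count as separate.

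Alternatives were DESeq2 1.42.0, limma-voom (limma 3.58.1), other scaling and filters, fits on the compared groups alone, and each library left out. Leaving out both libraries with striatal genes was chosen after seeing the data. It left 2 libraries in each mutant group, and its differences are given without an SE. The members and the 16 other gene lists were chosen with earlier results of these data known. Beside the members, the 2 genes of a list with the smallest p in a comparison were named, with the 3 genes most alike to Dcx, Eomes, Mki67 and Hes5, and tissue check genes. Drd1, Prm1, and Bub1 and Ube2c as examples by library, were chosen after their values were seen. A gene that this rule would name in the stem cell list is not reported here.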

Additional observations from a re-analysis of the deposited data

How the results depend on the processing

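No member was called under any alternative: 1233 log2 fold changes were recomputed, 0 passed the threshold and 69 changed sign. The smallest adjusted p of Hes5 was 0.19 for THC in control mice and 0.052 for genotype under vehicle. The number of all genes called did move. With DESeq2 it was 12 for THC in control mice, 3 for THC in mutants, 788 for genotype under vehicle and 7 for genotype under THC. It was 34 for the interaction, 3 for averaged THC and 785 for averaged genotype. These DESeq2 counts are among 15802 genes, beside 0 of the 9 members in each comparison. With limma-voom it was 0 for genotype under vehicle and 0 for genotype under THC, as it was without both libraries with striatal genes, and with only the 2 groups compared it was 523 and 0. With each library left out in turn it ran from 0 to 3 for THC in mutants, 0 to 6 for genotype under vehicle, 0 to 2 for genotype under THC, 0 to 10 for the interaction and 1 to 942 for averaged genotype. The 3, 6 and 10 came without mutant THC library 1, and the 942 without mutant THC library 2. For genotype under vehicle the call was lost without control THC 1, mutant vehicle 1 or any 1 control vehicle library, and for genotype under THC without any 1 library but mutant THC 2, mutant vehicle 1 and mutant vehicle 3. The cause was not tested.

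Group means subtracted, 4 more pairs of members passed the correlation threshold, by p-values that may be too small, as given above. No paired analysis was possible because the labels' numbers do not recur between groups. With 3 libraries per group, small changes of Neurog2 (34 to 60 counts per library) were not detectable at this depth, while for Eomes the spread between libraries (coefficient of variation 42.7%) was above that from counting (12.8%).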
